A study of Mus musculus with 9 samples.

Results

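A set of 9 members of the complement system was followed in RNA of the mouse bladder: the 3 chains of C1q (C1qa, C1qb and C1qc), C4b, C3, Cfb, the receptors C3ar1 and C5ar1, and the inhibitor Serping1. They were chosen by name as the rows of the deposited table that carry these 9 gene symbols, out of 53342 genes in the table, and all 9 were among the 19314 genes that passed the expression filter. The study infused hydrogen peroxide (H2O2) into the bladder as a model of interstitial cystitis and asked what SB431542, an inhibitor of the TGF-beta receptor, changes in the tissue. All mice were female wild-type C57BL/6N animals of 8 weeks at infusion, and each of the 3 groups holds 3 libraries taken on day 10. The H2O2/SB431542-treated mice received 1.5% H2O2 in the bladder and 1.2 mM SB431542 in the peritoneal cavity on days 0 and 4, and the H2O2/saline-treated mice received the same infusion with saline injections. Control mice are labelled untreated in the deposited record, whereas the study calls its sequenced controls sham and describes saline infused into control bladders. These descriptions differ, and the 3 libraries were kept as 1 control group as labelled. The series calls its samples biological replicates without naming mice, so p-values measure the spread between these libraries. The labels name whole bladder and the methods name a hemisphere of it.

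Complement is a set of proteins that marks microbes, dying cells and immune complexes for removal and calls in white blood cells. The classical pathway starts with C1q, which binds its target and lets the C1 proteases cut C4 and C2. Every route meets at C3, the alternative pathway amplifies its cleavage through factor B, and the small fragments C3a and C5a act on receptors of myeloid and other cells. The liver makes most complement of the blood, but tissues make their own as well: C1q comes mainly from macrophages, and fibroblasts and epithelia can make C3, C4, factor B and C1 inhibitor.

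Levels are CPM, counts scaled to a common library size with TMM factors (trimmed mean of M values). Library totals ran from 37329213 to 41055328 counts. Of 4 hepatocyte markers, Serpina1a had no count, and Alb (albumin) and Apoa1 averaged at most 0.0705 CPM in any group. The other, Ttr (transthyretin), averaged 4.10 CPM in H2O2/SB431542, 8.58 CPM in H2O2/saline and 69.9 CPM in control. It was lower in all H2O2/saline libraries than in all controls (log2 fold change −3.03, adjusted p = 0.0971 with edgeR, with the replicate number as a block −3.60 and 0.0209), and its part in the complement values was not tested. The 10 urothelial markers summed to between 24600 and 37900 CPM in the 9 libraries, but they did not move together. In H2O2/saline against control 7 of 10 had a positive log2 fold change, with Krt5 highest at 1.37. Upk1a, Upk2 and Upk3a stood at −0.79, −0.85 and −0.94. The replicate 1 libraries of all 3 groups stood apart in blood markers, with summed haemoglobin and Alas2 levels of 1530 CPM in H2O2/SB431542, 1500 CPM in H2O2/saline and 1620 CPM in control, whereas the other libraries had 490 to 709 CPM. Adipoq of the adipocyte markers had 3.19, 9.8 and 14.3 CPM in the same libraries and at most 0.634 CPM elsewhere. Plin1, Cidec and Lep were also highest there, whereas Fabp4 was not. Cfd of the alternative pathway had 27.2, 104 and 167 CPM there and at most 5.01 CPM elsewhere. Smooth muscle markers summed to 22700 CPM in control 1 and to 50800 and 43700 CPM in controls 2 and 3. The part of these differences in the complement values was not tested. H2O2/saline 1 also stood apart from the rest of its group: it had the lowest level of the H2O2/saline libraries for all 9 complement genes. Fold changes without it are given beside the results for H2O2/saline. It was singled out by its levels of these same genes, so leaving it out raises all 9 H2O2/saline means by construction. Fold changes against control then shift upward, and those of H2O2/SB431542 against H2O2/saline shift downward. Values and calls from any fit without this library are therefore not an independent check.

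H2O2/saline bladders had higher mean levels of all 9 genes than control bladders. None of the 9 was called by edgeR with the expression filter and no replicate block, whereas some other fits without pairing called several. C5ar1 had the highest fold change at 3.24-fold (95% interval 1.47 to 7.16), followed by C4b, C1qb and C1qa at 2.67-fold, 2.39-fold and 2.37-fold. Serping1 had the lowest, at 1.36-fold (0.911 to 2.03). With edgeR's quasi-likelihood test and Benjamini-Hochberg adjustment over all tested genes, 0 of 9 members were called, where 0.0466% of all genes were called higher and 0.00518% lower. An unadjusted p under 0.05 was reached by 8 of 9 members and by 17.8% of all genes. The median log2 fold change was 1.10 over the members and −0.02 over all tested genes. In 6 of the 9 genes the lowest H2O2/saline library lay above the highest control, as in 9.7% of all genes.

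Libraries with the same replicate number deviated together in this comparison, although no label pairs them. A link of the replicate 1 libraries alone could give this, since the deviations within a group cancel out. With the replicate number as a block 5 members were called higher: C1qa, C1qb, C1qc, C4b and C5ar1. Calls in that fit covered 2.97% of all genes in the higher direction. DESeq2 called 6 members higher (4.61% of all genes) and limma-voom 0 (0.0311%). With no filter, edgeR without the block called C3 and Cfb beside the 5 genes named for the block (3.08% of 33427 genes higher). With at least 10 counts in every library it called C1qa and C1qb (1.46% of 14798 genes). Without H2O2/saline 1, edgeR called 6, the same 5 genes and C3, where 5.52% of all genes were called higher, and with replicates 2 and 3 only it called those 6 as well (6.98%). Without control 1 the count was 1, C4b (0.533%).

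H2O2/SB431542 bladders had lower mean levels of all 9 genes than H2O2/saline bladders. No difference passed the adjusted edgeR test with all libraries and the expression filter. Serping1 came nearest, at 0.507-fold (0.339 to 0.759), and C3ar1 was almost level at 0.957-fold (0.458 to 2.0). The calls were 0 of 9 members with edgeR, with and without the block, 0 with limma-voom and 0 with DESeq2. Leaving out H2O2/saline 1, or using replicates 2 and 3 only, edgeR called 1 member lower, Serping1 (0.585% and 0.771% of all genes). With all libraries and no filter it also called Serping1 (0.667% of 33427 genes lower). With all libraries and the expression filter, 0% of all genes were called lower by edgeR with and without the block and by limma-voom, and 0.14% by DESeq2. An unadjusted p under 0.05 was reached by 3 of 9 members and by 8.83% of all genes, and the median log2 fold change was −0.58 over the members and 0.02 over all tested genes. Serping1 alone of the 9 had every H2O2/SB431542 library below every H2O2/saline library, which 7.37% of all genes had.

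H2O2/SB431542 bladders stood above control bladders in the mean of 8 of the 9 genes, with Serping1 on the other side. Again edgeR with the expression filter called none. C4b had the highest fold change at 2.26-fold (1.28 to 4.0). The counts were 0 of 9 with edgeR, with and without the block, with DESeq2 and with limma-voom. The share of all genes called higher was 0.0104% with edgeR, 0.15% with the block, 0.756% with DESeq2 and 0.0104% with limma-voom, and 0.00518% were called lower with edgeR. An unadjusted p under 0.05 was reached by 3 of 9 members and by 7.61% of all genes, and the median log2 fold change was 0.68, against 0.00 over all tested genes. C3 and C4b had all H2O2/SB431542 libraries above all controls, as in 7.98% of all genes. With replicates 2 and 3 only, C3 and C4b were called higher (1.61% of all genes) and Serping1 lower (0.72%). With all libraries and no filter, edgeR called C4b higher (0.996% of 33427 genes). The 3 comparisons share libraries, so their fold changes are not independent of each other.

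**Figure D1:**
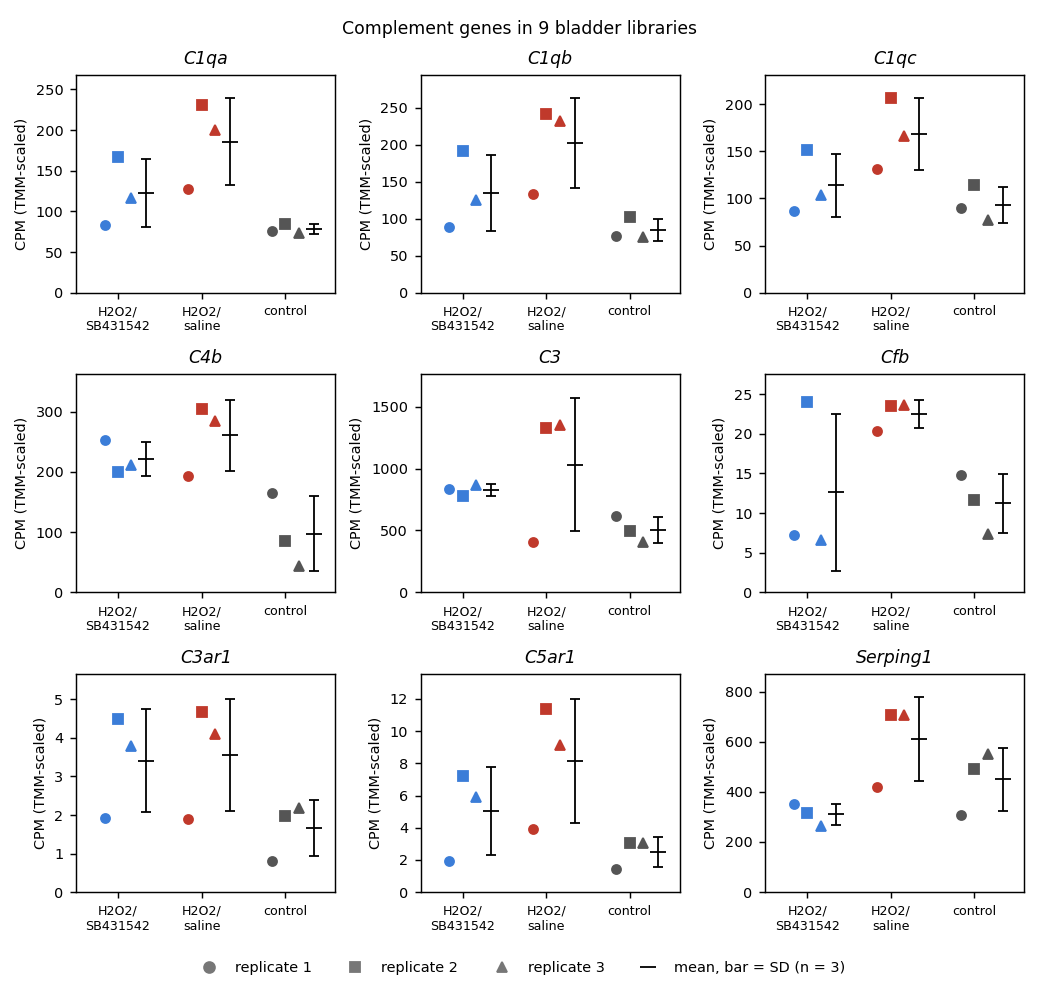
CPM of the 9 complement genes (y axis, linear from 0) in each library of H2O2/SB431542, H2O2/saline and control, with the mean and SD of 3 libraries as a bar. H2O2/saline 1 (red circle) is the lowest red point in all 9 panels, and Serping1 is the panel in which all blue points lie under all red ones.

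**Figure D2:**
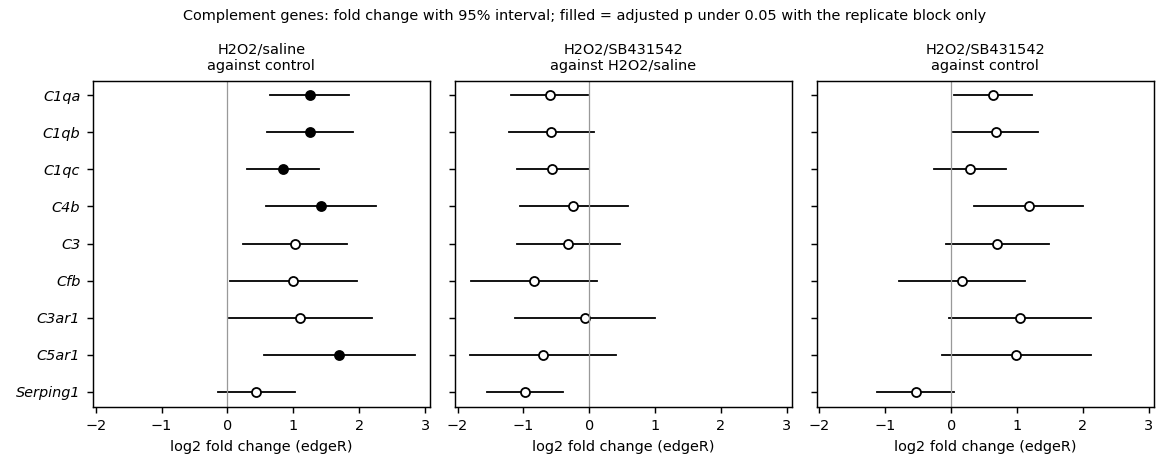
Log2 fold changes of the 9 genes in the 3 comparisons with 95% intervals from edgeR (x axis, log2). Filled points mark the 5 genes called with the replicate block in H2O2/saline against control (C1qa, C1qb, C1qc, C4b and C5ar1). The fit without the block that gave the intervals calls none of the 9 genes.

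C1q is built from 3 kinds of chain, encoded by C1qa, C1qb and C1qc, which lie side by side on chromosome 4. To show the letters in front of genes that moved together, the promoter windows of C1qb and C1qc are printed from RefSeq (GRCm38.p6, from 250 bases before the transcript start to the first 50 bases after it, read on the minus strand). The build of the count table is GRCm39. The C1qb window is chr4:136886151-136886450 and the C1qc window chr4:136892865-136893164. Capitals mark GAGGAA, the core letters bound by the myeloid factor PU.1, or its reverse complement TTCCTC.
C1qb: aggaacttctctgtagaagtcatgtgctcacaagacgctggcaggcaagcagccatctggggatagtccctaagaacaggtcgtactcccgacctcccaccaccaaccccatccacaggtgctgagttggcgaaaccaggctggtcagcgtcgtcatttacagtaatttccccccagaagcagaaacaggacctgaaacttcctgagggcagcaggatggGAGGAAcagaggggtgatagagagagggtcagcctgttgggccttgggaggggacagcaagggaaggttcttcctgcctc
C1qc: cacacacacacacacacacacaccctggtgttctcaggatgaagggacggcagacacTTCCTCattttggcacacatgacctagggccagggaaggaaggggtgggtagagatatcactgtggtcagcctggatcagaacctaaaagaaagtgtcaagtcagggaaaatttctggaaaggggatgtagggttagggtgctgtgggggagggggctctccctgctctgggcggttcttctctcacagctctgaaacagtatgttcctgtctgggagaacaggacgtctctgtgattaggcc
GAGGAA was searched on both strands and begins 30 bases before the start of C1qb, and its reverse complement begins 193 bases before the start of C1qc. It occurs in 28.3% of the 32851 promoter windows of 300 bases, so a match is a description and not a site. Windows were found for 5 of the 9 genes, C1qb, C1qc, C3, C3ar1 and C5ar1.

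C1qa had 83.9, 167 and 116 CPM in H2O2/SB431542 libraries 1 to 3, 127, 231 and 200 CPM in H2O2/saline libraries 1 to 3, and 76.2, 84.8 and 74.1 CPM in control libraries 1 to 3. C1qb had 89.5, 191 and 125 CPM in H2O2/SB431542, 133, 242 and 232 CPM in H2O2/saline, and 76.4, 102 and 75.6 CPM in control. C1qc had 86.7, 151 and 104 CPM in H2O2/SB431542, 131, 207 and 166 CPM in H2O2/saline, and 89.6, 114 and 76.7 CPM in control. For each chain the H2O2/saline libraries lay above all controls, and H2O2/SB431542 1 lay with the controls while H2O2/SB431542 2 lay above H2O2/saline 1. C1qa averaged 186 ± 53.7 CPM in H2O2/saline and 78.4 ± 5.67 CPM in control (SD, n = 3 each), a log2 fold change of 1.25 ± 0.273 (SE). The adjusted p was 0.0616 with edgeR and 0.0135 with the block. C1qb averaged 202 ± 60.2 CPM in H2O2/saline and 84.6 ± 14.9 CPM in control (log2 fold change 1.26 ± 0.299, adjusted p = 0.0704, with the block 0.0135). C1qc, the chain with the smallest change, averaged 168 ± 38.0 CPM in H2O2/saline and 93.4 ± 18.9 CPM in control (0.84 ± 0.250, adjusted p = 0.115, with the block 0.0227). Without H2O2/saline 1 these log2 fold changes were 1.41, 1.44 and 0.95 for C1qa, C1qb and C1qc (adjusted p = 0.00437, 0.00667 and 0.0347).

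In H2O2/SB431542 the C1q chains averaged 122 ± 42.2 CPM for C1qa, 135 ± 51.5 CPM for C1qb and 114 ± 33.1 CPM for C1qc. Against H2O2/saline the log2 fold changes were −0.60 (95% interval −1.19 to −0.02) for C1qa, −0.58 (−1.22 to 0.07) for C1qb and −0.56 (−1.10 to −0.01) for C1qc, with adjusted p = 0.557, 0.594 and 0.557. When H2O2/saline 1 was left out they were −0.78, −0.77 and −0.67 (adjusted p = 0.147, 0.177 and 0.199). Against control they were 0.64, 0.68 and 0.29 (adjusted p = 0.611, 0.629 and 0.920). The chains ran closely together over the libraries: on centred log2 CPM, C1qa and C1qb differed by 0.0715 on average over 9 libraries, the smallest such difference of any 2 members. Their shares of the summed C1q counts were less even. C1qc made up 33.3%, 29.6% and 30.2% in H2O2/SB431542 libraries 1 to 3, 33.5%, 30.4% and 27.7% in H2O2/saline, and 37%, 37.9% and 33.9% in control. Every infused library had a smaller C1qc share than every control, a pattern noticed in the data and not tested.

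C4b encodes complement C4, the substrate of the C1 proteases that forms part of the C3 convertase, and lies on chromosome 17. It had 253, 200 and 211 CPM in H2O2/SB431542 libraries 1 to 3, 194, 305 and 284 CPM in H2O2/saline, and 165, 85.1 and 43.3 CPM in control. All 6 infused libraries lay above all controls, and the controls spread most relative to their mean. The means were 221 ± 27.8 CPM in H2O2/SB431542, 261 ± 58.8 CPM in H2O2/saline and 97.9 ± 62.0 CPM in control. H2O2/saline differed from control by 1.42 ± 0.381 on the log2 scale (adjusted p = 0.0913, with the block 1.57 and 0.0397), without control 1 by 2.03 (adjusted p = 0.0229) and without H2O2/saline 1 by 1.54 (adjusted p = 0.0271). H2O2/SB431542 differed from control by 1.18 (0.35 to 2.0, adjusted p = 0.417) and from H2O2/saline by −0.24 (−1.05 to 0.58, adjusted p = 0.892, without H2O2/saline 1 −0.37 and 0.669). C4a is a near-identical copy, so the split of reads between both genes is uncertain. As counted, C4a held 0.195% to 1.06% of the C4a and C4b counts.

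C3, the protein on which all routes converge, is also encoded on chromosome 17. Its promoter window (chr17:57228087-57228386 of GRCm38.p6, minus strand, RefSeq) is printed because C3 was the member with the most counts, with a match to the C/EBP-type letters TTGCNNAA in capitals. C/EBP factors act in acute-phase genes.
C3: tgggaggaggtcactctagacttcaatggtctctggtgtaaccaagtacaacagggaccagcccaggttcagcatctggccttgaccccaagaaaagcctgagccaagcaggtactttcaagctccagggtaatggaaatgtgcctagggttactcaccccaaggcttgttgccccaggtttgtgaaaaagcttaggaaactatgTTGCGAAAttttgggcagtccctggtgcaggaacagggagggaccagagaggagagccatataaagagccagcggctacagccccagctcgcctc
The match begins 45 bases before the start, and 10.8% of all windows hold TTGCNNAA on either strand. The core of the interferon-stimulated response element occurs in 3.44% of windows, on either strand, and in none of the 5 found here, and the windows of C3ar1 and C5ar1 held none of the 3 motifs. C3 had 837, 776 and 865 CPM in H2O2/SB431542 libraries 1 to 3, 410, 1330 and 1350 CPM in H2O2/saline, and 616, 499 and 407 CPM in control. H2O2/saline 1 lay among the controls, and the H2O2/SB431542 libraries sat close together between the controls and the other H2O2/saline libraries. The means were 826 ± 45.6 CPM in H2O2/SB431542, 1030 ± 537 CPM in H2O2/saline and 507 ± 105 CPM in control. H2O2/saline differed from control by 1.02 ± 0.361 on the log2 scale (adjusted p = 0.169, with the block 0.94 and 0.152). Without H2O2/saline 1 the difference was 1.35 (adjusted p = 0.00215). H2O2/SB431542 differed from H2O2/saline by −0.32 (−1.10 to 0.46, adjusted p = 0.840, without H2O2/saline 1 −0.66 and 0.144) and from control by 0.70 (−0.08 to 1.49, adjusted p = 0.711).

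Cfb encodes factor B, the protease of the alternative pathway. It had 7.22, 24.0 and 6.65 CPM in H2O2/SB431542 libraries 1 to 3, 20.4, 23.5 and 23.6 CPM in H2O2/saline, and 14.8, 11.6 and 7.32 CPM in control. The H2O2/saline libraries lay above all controls and close together, H2O2/SB431542 2 lay above them all, and the other H2O2/SB431542 libraries lay below every control. The log2 fold change was 1.0 ± 0.440 for H2O2/saline against control (adjusted p = 0.261, with the block 1.05 and 0.117, without H2O2/saline 1 1.02 and 0.201), −0.84 (−1.79 to 0.12) for H2O2/SB431542 against H2O2/saline (adjusted p = 0.607, without H2O2/saline 1 −0.86 and 0.375) and 0.17 (−0.79 to 1.12) for H2O2/SB431542 against control (adjusted p = 0.990). The last value changes sign with limma-voom, with the authors' normalized values and without H2O2/SB431542 2 or control 3, and was −0.71 without H2O2/SB431542 2.

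These Cfb values depend on how reads were divided between overlapping gene models. In the GENCODE vM21 annotation (GRCm38), 2246 of the 2825 exonic bases of Cfb (79.5%) also belong to Gm20547, a gene model that shares 1656 exonic bases with C2 as well. Gm20547 had 75.6, 53.3 and 70.9 CPM in H2O2/SB431542 libraries 1 to 3, 49.4, 163 and 140 CPM in H2O2/saline, and 41.8, 34.7 and 30.6 CPM in control. Of the counts at Cfb and Gm20547 together, Cfb held 8.72%, 31.0% and 8.58% in H2O2/SB431542, 29.2%, 12.6% and 14.4% in H2O2/saline, and 26.2%, 25.0% and 19.3% in control. The share thus differed more than 3-fold between libraries of a single group. Summed, a choice made after seeing the data, both genes had 82.8, 77.3 and 77.6 CPM in H2O2/SB431542, 69.7, 186 and 164 CPM in H2O2/saline, and 56.6, 46.3 and 37.9 CPM in control. On the sum the H2O2/SB431542 libraries lay close together, above all controls, and H2O2/saline 1 was the lowest of the infused libraries, as it was for C3. The sum differed by 1.58 ± 0.307 on the log2 scale between H2O2/saline and control (adjusted p = 0.0599, with the block 1.53 and 0.0260). It differed by −0.82 (−1.48 to −0.16, adjusted p = 0.527) between H2O2/SB431542 and H2O2/saline and by 0.76 (0.10 to 1.41, adjusted p = 0.580) between H2O2/SB431542 and control. With the counts of C2 added, H2O2/saline against control was 1.12 (adjusted p = 0.0678, with the block 0.0402). The sources used here do not give the rule by which reads were assigned, and Cfb alone is therefore uncertain.

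**Figure D3:**
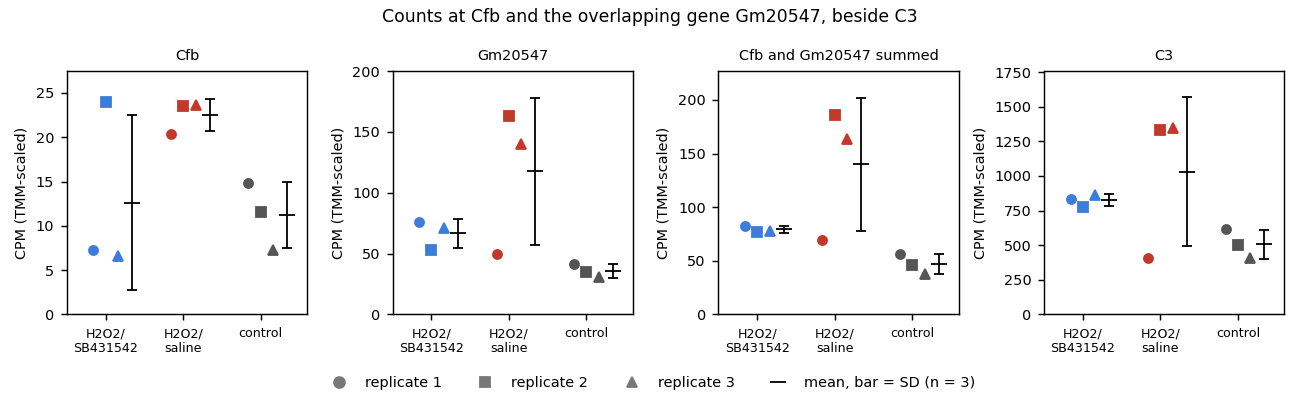
CPM (y axis, linear from 0) of Cfb, of the overlapping Gm20547, of their sum and of C3 in each library, with mean and SD of 3 libraries. Cfb alone puts H2O2/SB431542 2 at 24.0 CPM and the other H2O2/SB431542 libraries at 7.22 and 6.65 CPM, whereas on the sum all 3 lie between 77.3 and 82.8 CPM.

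C3ar1 and C5ar1 encode the receptors of C3a and C5a, which draw in and activate myeloid cells. C3ar1, on chromosome 6, had 1.93, 4.5 and 3.8 CPM in H2O2/SB431542 libraries 1 to 3, 1.91, 4.66 and 4.11 CPM in H2O2/saline, and 0.820, 1.98 and 2.17 CPM in control. C5ar1, on chromosome 7, had 1.96, 7.20 and 5.92 CPM in H2O2/SB431542, 3.93, 11.4 and 9.14 CPM in H2O2/saline, and 1.45, 3.06 and 3.04 CPM in control. In all 3 groups the replicate 1 library was the lowest for both receptors, and for C5ar1 every H2O2/saline library lay above every control. C5ar1 averaged 8.17 ± 3.85 CPM in H2O2/saline and 2.52 ± 0.923 CPM in control, a log2 fold change of 1.70 ± 0.525 (adjusted p = 0.125 with edgeR, with the block 1.64 and 0.0147, without H2O2/saline 1 1.98 and 0.0234). C3ar1 averaged 3.56 ± 1.46 CPM in H2O2/saline and 1.66 ± 0.730 CPM in control (1.10 ± 0.498, adjusted p = 0.273, with the block 1.12 and 0.0679, without H2O2/saline 1 1.36 and 0.101). The lowest C3ar1 count was 31, in control 1, so these levels rest on few counts.

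Between H2O2/SB431542 and H2O2/saline the receptors gave different values, though their difference was not tested. C3ar1 averaged 3.41 ± 1.33 CPM in H2O2/SB431542, with a log2 fold change of −0.06 (−1.13 to 1.0, adjusted p = 0.982) against H2O2/saline. C5ar1 averaged 5.03 ± 2.74 CPM in H2O2/SB431542, with −0.70 (−1.81 to 0.41, adjusted p = 0.716). Leaving out H2O2/saline 1 gave −0.32 for C3ar1 and −0.99 for C5ar1 (adjusted p = 0.780 and 0.308). Both intervals include a value of −1 and no change. Against control, H2O2/SB431542 differed by 1.04 (−0.04 to 2.13, adjusted p = 0.674) for C3ar1 and by 0.99 (−0.14 to 2.12, adjusted p = 0.721) for C5ar1.

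Serping1, on chromosome 2, encodes C1 inhibitor, the serpin that stops the C1 proteases and also kallikrein. It had 351, 314 and 264 CPM in H2O2/SB431542 libraries 1 to 3, 418, 707 and 707 CPM in H2O2/saline, and 307, 492 and 550 CPM in control. All H2O2/SB431542 libraries lay below all H2O2/saline libraries, and control 1 lay among the H2O2/SB431542 libraries. The means were 310 ± 43.9 CPM in H2O2/SB431542, 611 ± 167 CPM in H2O2/saline and 449 ± 127 CPM in control. H2O2/SB431542 differed from H2O2/saline by −0.98 ± 0.267 on the log2 scale (−1.56 to −0.40), which ranked 85 among all tested genes by edgeR (adjusted p = 0.528, with the block −0.92 and 0.215). Without H2O2/saline 1 it was −1.15 with an adjusted p of 0.0450, where 0.585% of all genes were called lower, and with replicates 2 and 3 only −1.27 with 0.00935 (0.771%). With all libraries and no filter Serping1 was also called lower (0.667% of 33427 genes). H2O2/saline differed from control by 0.44 (−0.14 to 1.02, adjusted p = 0.423, without H2O2/saline 1 0.61 and 0.141), and H2O2/SB431542 differed from control by −0.54 (−1.12 to 0.04, adjusted p = 0.684). With replicates 2 and 3 only the last value was −0.86 (adjusted p = 0.0201).

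Markers of several other cell types were also higher in H2O2/saline than in control. The 12 listed markers of macrophages and monocytes were all detected and summed to 199 to 294 CPM in H2O2/SB431542, 240 to 402 CPM in H2O2/saline and 132 to 183 CPM in control. In H2O2/saline against control 9 of 12 were positive with a median of 1.13. The other 3 were Mrc1 at −0.25, Cd163 at −0.10 and Mertk at −0.09. None of the 12 was called by edgeR, 7 had an unadjusted p under 0.05 (17.8% of all genes), and with the block 5 rose (2.97% of all genes): Csf1r, the receptor of the macrophage growth factor, Cd68, Fcgr1, Lyz2 and Ly6c2. Neutrophil markers summed to 2.66 to 11.6 CPM in H2O2/SB431542, 4.22 to 19.4 CPM in H2O2/saline and 1.80 to 3.44 CPM in control, with Ly6g averaging 0.116 CPM, 0.357 CPM and 0 CPM in the same order. All 6 tested neutrophil markers were positive in H2O2/saline against control with a median of 2.96, and Csf3r rose with the block (adjusted p = 0.0488). Fibroblast markers summed to 3010 to 5530 CPM in H2O2/SB431542, 3710 to 4840 CPM in H2O2/saline and 2010 to 3810 CPM in control, with no call among 7 markers in any of these comparisons. They did not move together in H2O2/saline against control, where 5 of 7 were positive with a median of 0.13. Col1a1 and Col1a2 were highest at 0.73 and 0.74, and Dcn and Pi16 stood at −0.52 and −0.11. Endothelial markers summed to 204 to 243 CPM in H2O2/SB431542, 203 to 359 CPM in H2O2/saline and 128 to 195 CPM in control, and 2 of 5, Cdh5 and Tie1, rose with the block (log2 fold changes 1.02 and 0.96, adjusted p = 0.0286 and 0.0333). In H2O2/saline against control 4 of these 5 were positive, and Kdr stood at −0.06. Mast cell markers summed to 15.7 to 27.4 CPM in H2O2/SB431542, 18.1 to 50.2 CPM in H2O2/saline and 13.3 to 24.5 CPM in control, with a median of 1.39 in H2O2/saline against control, and 2 of 5 tested, Mcpt4 and Tpsb2, rose with the block (adjusted p = 0.0493 and 0.0288). Of the tested mast cell markers 4 of 5 were positive in that comparison, and Kit stood at −0.35. T cell markers summed to 2.40 to 3.50 CPM in H2O2/SB431542, 3.32 to 5.49 CPM in H2O2/saline and 1.74 to 2.49 CPM in control, with 6 of 6 positive in H2O2/saline against control and none called in either fit. B and plasma cell markers summed to 1.51 to 3.18 CPM in H2O2/SB431542, 1.22 to 5.35 CPM in H2O2/saline and 0.49 to 2.75 CPM in control. The part of these cell types in the complement levels was not tested. In whole tissue, a change in the number of cells of a type and a change of RNA per cell cannot be told apart.

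Set against the mean of the 12 macrophage markers in the same library, the complement genes separated. That mean was 0.96 higher in H2O2/saline than in control on the log2 scale, differed by −0.29 between H2O2/SB431542 and H2O2/saline, and was 0.67 higher in H2O2/SB431542 than in control. Relative to it, C5ar1 and C1qb remained higher in all H2O2/saline libraries than in all controls, by 0.66 and 0.26, where 1.12% of all genes did. The groups were narrowly apart. The lowest H2O2/saline and the highest control values were −0.67 and −0.71 for C5ar1 and 4.21 and 4.17 for C1qb. Subtracting a mean that was higher in H2O2/saline lowers this difference for every gene, so a small share is built in. C1qa stood at 0.25, C1qc at −0.12, C3ar1 at 0.14, C3 at −0.11, Cfb at 0.10 and C4b at 0.64, with groups that overlap. Serping1 lay lower in all H2O2/saline libraries, by −0.51, as did 40.9% of all genes, since most genes did not share the shift of the markers. Between H2O2/SB431542 and H2O2/saline the relative values were −0.33 for C1qa, −0.31 for C1qb, −0.28 for C1qc, −0.81 for Cfb, −0.47 for C5ar1 and −0.66 for Serping1, and they were positive for C3, C4b and C3ar1 at 0.16, 0.07 and 0.24. Serping1 was the only member whose groups did not overlap (1.78% of all genes). Against control, Serping1 lay lower in all H2O2/SB431542 libraries by −1.17 and C1qc by −0.40, as did 38% of all genes. With 3 against 3 libraries the exact permutation test (two-sided) cannot go below 0.1, the value for each difference without overlap.

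**Figure D4:**
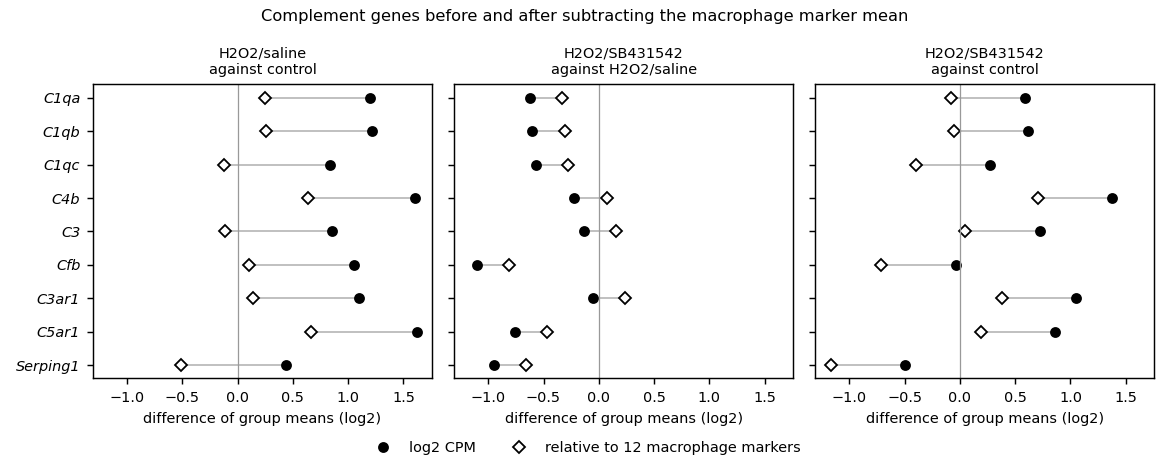
Difference of group means on the log2 CPM scale (filled circles) and after subtracting the mean of 12 macrophage markers in each library (open diamonds), for the 9 genes in the 3 comparisons. In H2O2/saline against control C5ar1 and C4b stay at 0.66 and 0.64 after subtraction while C1qc and C3 lie at −0.12 and −0.11, and the diamond of Serping1 is negative in all 3 panels.

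Of the wider complement list of 51 genes, written by role, 41 were tested and 32 of these are not among the 9. Mbl1, Mbl2 and C8b had no count in any library. In H2O2/saline against control none of the 32 was called by edgeR, 8 had an unadjusted p under 0.05 (17.8% of all genes) and 3 rose with the block (2.97% of all genes), and the median log2 fold change was 0.02 with 16 of 32 positive. The 3 that rose with the block were Clu, which encodes the inhibitor clusterin, and Itgax and Itgb2, the chains of complement receptor 4. Clu had 608, 1960 and 1780 CPM in H2O2/SB431542 libraries 1 to 3, 749, 5480 and 4860 CPM in H2O2/saline, and 518, 524 and 537 CPM in control. Its 6 infused libraries lay above all controls, and in both infused groups library 1 was by far the lowest. Clu differed by 2.81 on the log2 scale between H2O2/saline and control (1.47 to 4.15, adjusted p = 0.0616, with the block 2.36 and 0.0251) and by −1.35 (−2.62 to −0.08, adjusted p = 0.551) between H2O2/SB431542 and H2O2/saline.

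The roles differed in their medians, but these differences were not tested. In H2O2/saline against control the median log2 fold change was 1.09 for 8 receptors and 0.84 for 9 genes of the classical pathway. It was 0.78 for 4 genes of C3 and the alternative pathway, 0.32 for 5 of the lectin pathway and 0.12 for 6 soluble inhibitors. For 6 membrane inhibitors it was −0.32, and for 3 of the terminal pathway −0.48. These medians include the 9 members, and the classical one is the value of C1qc. The classical genes outside the members stood at 0.94 for C1ra, 0.42 for C2, 0.30 for C1s1, −0.04 for C4a and −0.67 for C1s2. Several genes lay near the floor, such as C6, Colec10 and Cfi at 0.212, 0.226 and 0.411 CPM over all libraries. Itgb2 had 21.3 ± 4.49 CPM in H2O2/saline and 8.10 ± 1.27 CPM in control (1.40, adjusted p = 0.0600, with the block 0.0147), and Itgax had 8.78 ± 3.96 CPM and 1.98 ± 0.482 CPM in the same groups (2.15, adjusted p = 0.0600, with the block 0.0207). Both are β2 integrin chains of myeloid cells. Cd93, a receptor of endothelium and myeloid cells, had 1.05 (adjusted p = 0.204). Cfp, the stabiliser properdin, had 50.5 ± 4.92 CPM in H2O2/SB431542, 81.1 ± 12.1 CPM in H2O2/saline and 55.1 ± 7.24 CPM in control, with all H2O2/SB431542 libraries below all H2O2/saline libraries (−0.68, adjusted p = 0.528). Fcna, a ficolin of the lectin pathway, showed the same order with 13.5 ± 0.804 CPM in H2O2/SB431542, 23.2 ± 3.84 CPM in H2O2/saline and 18.6 ± 3.25 CPM in control (−0.78 for H2O2/SB431542 against H2O2/saline, adjusted p = 0.528). Colec11, a collectin, stood at 0.08 in H2O2/saline against control, C7 and C8g of the membrane attack complex at −0.97 and −0.48, and the membrane inhibitors Cr1l and Cd59a at −0.09 and −0.38 (adjusted p = 0.417 to 0.960 for these 5).

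**Figure D5:**
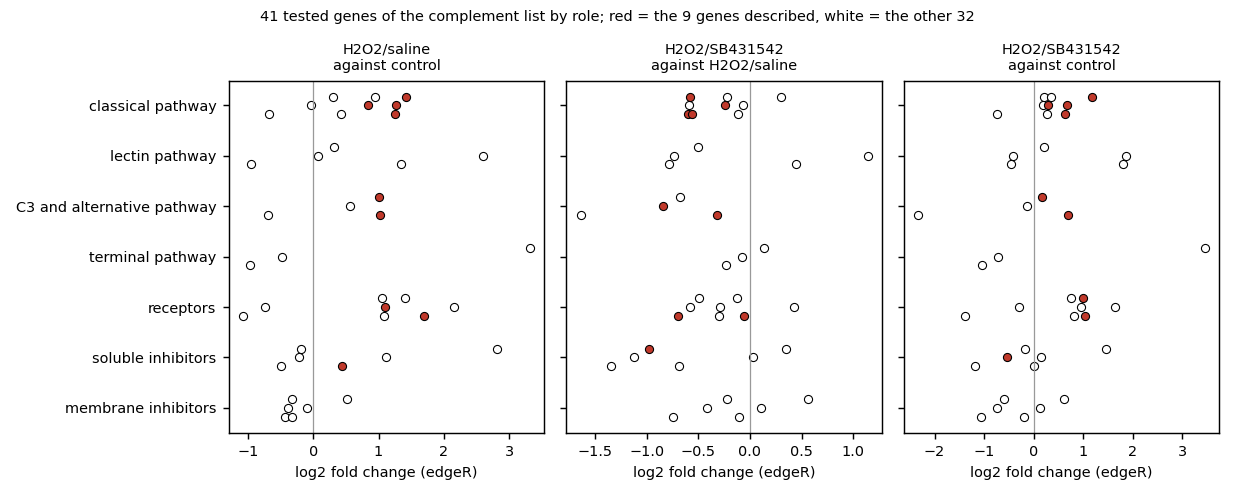
Log2 fold changes (x axis, edgeR) of the 41 tested complement genes by role in the 3 comparisons, with the 9 members in red and the other 32 in white. In H2O2/saline against control 6 of 8 receptors and 7 of 9 classical pathway genes lie above 0, and 1 of 6 membrane inhibitors does.

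Levels between genes were compared per kilobase of exon, as group means. Serping1 and C3 had 133 and 161 CPM per kilobase in H2O2/SB431542, 263 and 200 in H2O2/saline, and 193 and 98.6 in control. C3 thus stood above Serping1 in the H2O2/SB431542 mean and below it in the H2O2/saline and control means. C1qb and C1qa followed with 130 and 124 CPM per kilobase over all libraries, then C1qc with 64.7, C4b with 33.9, Cfb with 5.49, C5ar1 with 2.04 and C3ar1 with 0.667. The receptors were the scarcest of the 9 transcripts in these means. Serping1, C3, C1qb and C1qa do not keep 1 order in single libraries: in H2O2/SB431542 2 they had 135, 151, 176 and 161 CPM per kilobase, and in H2O2/saline 1 they had 180, 79.7, 122 and 122 CPM per kilobase.

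Likeness of pattern was measured as the mean absolute difference of centred log2 CPM over the 9 libraries. The genes nearest to the mean of the 3 C1q chains, which ranged over 1.58, were Selplg (0.0694), C1qtnf5 (0.0725) and Angptl4 (0.0954). Nearest to C3 were Slc25a13 (0.140), Cars (0.162) and Ace (0.173). Nearest to Serping1 were Gm42674 (0.109), Rilp (0.129) and Vmn1r13 (0.143), and nearest to Cfb were Gimap1 (0.272), Oxtr (0.274) and Cd52 (0.291), at larger distances than for the other genes. Among the members themselves C4b and C5ar1 were farthest apart, at 0.781.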

How the data were processed

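Poly-A RNA of 9 bladders or bladder parts was sequenced as paired reads and analysed in strand NGS by the authors. Its version, the aligner, the annotation and the counting rule are not stated in the sources used here. The submitters' processing notes name the genome build GRCm39. The deposited table holds expected counts (32.0% of the nonzero values are exactly whole) and the authors' normalized log2 values, which are centred per gene and served only as an alternative. Rounding to whole numbers was followed by scaling with TMM factors of 0.910 to 1.07, and filterByExpr kept 19314 genes. Library totals ran from 37329213 to 41055328 counts, of which the receptors held 31 to 442 per library. R 4.3.3 was used with edgeR 4.0.16, limma 3.58.1 and DESeq2 1.42.0. All 9 libraries entered 1 quasi-likelihood fit with a mean per group, p-values were adjusted by Benjamini-Hochberg over all tested genes in each comparison, and a gene was called at an adjusted p under 0.05. Standard errors and 95% intervals derive from the F statistic. Log2 CPM used a prior count of 2. The edgeR code was tested on simulated data.

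Members, lists and tests were chosen with earlier results of these data known. Named beside the 9 members were genes of the 51-gene list called in either fit, the top genes by mean CPM per role, and the 3 genes nearest in pattern to C1q, C3, Cfb and Serping1. Neither labels nor paper pair the libraries. Deviations from the group means of same-numbered libraries had correlations of 0.312, 0.119 and 0.112 for H2O2/saline with control and of 0.514, 0.201 and 0.129 for H2O2/SB431542 with H2O2/saline, all above 0.1, so the pairing comes from the data alone. For H2O2/SB431542 with control they were 0.321, 0.0399 and 0.0770, and a block there rests on the number only. Alternatives were the replicate block, DESeq2, limma-voom, 2 other scalings, 2 other filters, 2 groups only, replicates 2 and 3 only, each library left out, limma on the log2 values, and 2 sums over overlapping genes added after seeing the data. Exonic bases came from GENCODE vM21 (GRCm38) and promoters from RefSeq (GRCm38.p6).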

Additional observations from a re-analysis of the deposited data

How the results depend on the processing

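The counts of all genes called in H2O2/saline against control, in H2O2/SB431542 against H2O2/saline and in H2O2/SB431542 against control were 10, 0 and 3 as reported, and 3447, 1706 and 1469 at an unadjusted p under 0.05. In the same order they were 925, 0 and 35 with the replicate block, 1409, 39 and 197 with DESeq2, 1579, 274 and 439 with no filter, 323, 0 and 6 with a minimum of 10 counts per library, 4, 1 and 23 with only the 2 groups compared, and 2521, 234 and 449 with replicates 2 and 3 only. Upper-quartile scaling gave 5 in the last comparison, and limma on the authors' log2 values gave 2 in the middle one. Leaving out 1 library gave 0 to 1822, 0 to 197 and 0 to 83. Of the 9 complement genes, H2O2/saline against control gave 0 as reported, 5 with the replicate block, 6 with DESeq2, 7 with no filter, 2 with that minimum, 6 with replicates 2 and 3 only, and 0 to 6 with 1 library left out. H2O2/SB431542 against H2O2/saline gave 1, Serping1, with no filter, with replicates 2 and 3 only and in the highest of the 0 to 1 with 1 library left out. H2O2/SB431542 against control gave 1, C4b, with no filter and 3 with replicates 2 and 3 only. The block changed no other call of the 9 genes. Signs turned for Cfb in H2O2/SB431542 against control, at −0.05 with limma-voom, −0.05 without control 3, −0.71 without H2O2/SB431542 2 and −0.05 on the authors' values, and for C3ar1 in H2O2/SB431542 against H2O2/saline, at 0.18 without H2O2/saline 2, 0.06 without H2O2/saline 3 and 0.22 without H2O2/SB431542 1. With 1 library left out the range was −0.71 to 0.49 for Cfb and −0.33 to 0.22 for C3ar1. The cause was not tested.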
